A study of Mus musculus with 4 samples.

Results

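The 10 genes that encode the TGF beta ligands (Tgfb1, Tgfb2, Tgfb3), their receptors (Tgfbr1, Tgfbr2, Tgfbr3) and the latent TGF beta binding proteins (Ltbp1, Ltbp2, Ltbp3, Ltbp4) were followed across the cells of mouse adipose tissue. They were taken by symbol from a table of 32290 features, and all 10 had UMIs (unique molecular identifiers, 1 per captured RNA molecule). The data came from 4 single-cell RNA sequencing (scRNAseq) libraries of subcutaneous (SC) and visceral intraperitoneal (IP) adipose tissue, 1 library for each depot and genotype. WT mice were Tie2e-cre; TERT+/+; mTmG and KO mice were Tie2e-cre; TERTfl/fl; mTmG, so that both genotypes carried the recombinase and the membrane Tomato to membrane GFP reporter. All were males aged 7 months that had been on high-fat diet (HFD) for 5 months. The Tie2e promoter was used to direct the recombinase to endothelial cells (EC). Recombination in the other classes was not examined here, so the KO label does not say which cells lost Tert. How many animals went into each library is not stated, and both cells and nuclei are named as what was loaded. With 1 library per group no difference had a replicate check, no test was possible, and every interval covers counting error only.

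TGF beta is secreted as a latent complex, in which the ligand stays bound to its own propeptide and, through it, to a latent TGF beta binding protein anchored in fibrillin and fibronectin matrix. Once released by integrins, proteases or thrombospondin, the ligand binds TGFBR2, which recruits and phosphorylates TGFBR1, while TGFBR3 (betaglycan) presents ligand to TGFBR2, the Tgfb2 product in particular. SMAD2 and SMAD3 then carry the signal to genes for collagens, matrix proteins and contractile proteins, and in adipose stroma the pathway is known for driving fibrosis and holding back adipogenesis.

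Between 518 and 1862 cells per library passed the filters, with 8537063 to 14416454 UMIs. The KO SC library shared 93 barcodes with WT IP, whereas any other pair of libraries shared at most 1. These barcodes had a median of 601 UMIs in the former library and 35392 in the latter, and 72 were adipose stromal cells (ASC, the fibroblast-like progenitors of adipocytes) in both. They were removed from KO SC, and values with them kept are given where they differ. Tert itself had 2 to 9 UMIs per library, too few to check the genotype. Cells were assigned to classes by UMIs of marker genes that include none of the 10. ASC numbered 104 (WT SC), 123 (KO SC), 280 (WT IP) and 214 (KO IP), and 8 of 8 ASC markers had UMIs in each. T cells numbered 457, 1163, 111 and 125. B cells numbered 300 and 462 in WT and KO SC, and macrophages 81 and 28 in WT and KO IP. EC were rare, with 28 cells over the 4 libraries, as were mural cells (pericytes and smooth muscle cells, 21 cells) and mesothelial cells (13 cells, none of them in SC). Levels are given as CPM, the UMIs of a gene per 1000000 UMIs of the class, and are compared for 1 gene across cells, not between genes.

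Ltbp2, Ltbp3 and Ltbp4 were higher in ASC of IP and Ltbp1 higher in ASC of SC, and the promoters of these 4 binders are shown for this reason. The sequences are the bases upstream of the RefSeq start site in GRCm38.p6, 5′ to 3′ on the gene's own strand, shortened where the GENCODE gene starts earlier. Capitals mark GC boxes (GGGCGG, or CCGCCC on the other strand), the hexamer bound by SP1 family factors.
Ltbp1 (chr17:75005279-75005528, plus strand): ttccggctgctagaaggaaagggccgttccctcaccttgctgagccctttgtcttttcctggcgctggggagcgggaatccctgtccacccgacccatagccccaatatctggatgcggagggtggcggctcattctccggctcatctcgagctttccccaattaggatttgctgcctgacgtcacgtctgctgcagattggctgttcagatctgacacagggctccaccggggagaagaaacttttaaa
Ltbp2 (chr12:84876533-84876741, minus strand): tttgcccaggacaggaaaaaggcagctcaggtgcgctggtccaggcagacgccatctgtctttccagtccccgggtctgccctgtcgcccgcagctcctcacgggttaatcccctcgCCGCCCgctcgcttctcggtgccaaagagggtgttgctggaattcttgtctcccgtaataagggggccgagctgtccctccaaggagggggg
Ltbp3 (chr19:5740650-5740899, plus strand): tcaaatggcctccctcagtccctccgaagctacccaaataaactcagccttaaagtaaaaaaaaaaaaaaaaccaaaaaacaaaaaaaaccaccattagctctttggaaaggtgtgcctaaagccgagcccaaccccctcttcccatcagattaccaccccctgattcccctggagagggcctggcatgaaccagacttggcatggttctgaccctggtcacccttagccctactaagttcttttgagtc
Ltbp4 (chr7:27337693-27337862, minus strand): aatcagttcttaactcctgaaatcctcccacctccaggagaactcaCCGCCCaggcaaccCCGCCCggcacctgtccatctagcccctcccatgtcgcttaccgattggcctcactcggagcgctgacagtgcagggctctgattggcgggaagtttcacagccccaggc
The printed stretch of Ltbp2 held 1 GC box and that of Ltbp4 held 2, while those of Ltbp1 and Ltbp3 held none. Uncut, at 250 bases, the windows of Ltbp2 and Ltbp4 held 2 and 3. Among 32851 promoter windows of 250 bases, 32.7% held at least 1. In windows of that length, TATAAA was found in 12.4% of all promoters and in Tgfb2 alone among the 8 members with an entry. The 6-letter CAGACA, a form of the SMAD-binding CAGA box, was in 17.1% of all promoters and again in Tgfb2 alone, and the AP-1 site TGACTCA, in 4.46% of all, was in none of the 8. Each motif was searched on both strands, and in the 8 windows no match overlapped a match of another motif. Tgfb3 and Tgfbr3 had no entry.

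In GENCODE on GRCm38, all 10 are protein-coding. Ltbp2 (ENSMUSG00000002020) spans chr12:84783212-84876532 on the minus strand, Ltbp4 (ENSMUSG00000040488) chr7:27305136-27337692 on the minus strand, Ltbp3 (ENSMUSG00000024940) chr19:5740904-5758532 on the plus strand and Ltbp1 (ENSMUSG00000001870) chr17:75005568-75392512 on the plus strand. Tgfb1 (ENSMUSG00000002603) lies at chr7:25687002-25705077 on the plus strand. Genes on the opposite strand that are also in the table overlap Tgfb2 (Gm29491), Tgfb3 (Ttll5 and Gm48008) and Ltbp2 (D030025P21Rik), so values of these 3 carry the uncertainty of how such reads were assigned.

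The genes differed in the classes that held them. Tgfb1 was highest in EC and leukocytes and low in ASC, whereas Tgfb2, Tgfb3 and the 4 binders were found in ASC and other non-leukocytes and were close to 0 in lymphocytes. Tgfbr1 and Tgfbr2 were detected in each of the 8 classes, and Tgfbr3 mainly in stroma and T cells.

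**Figure D1:**
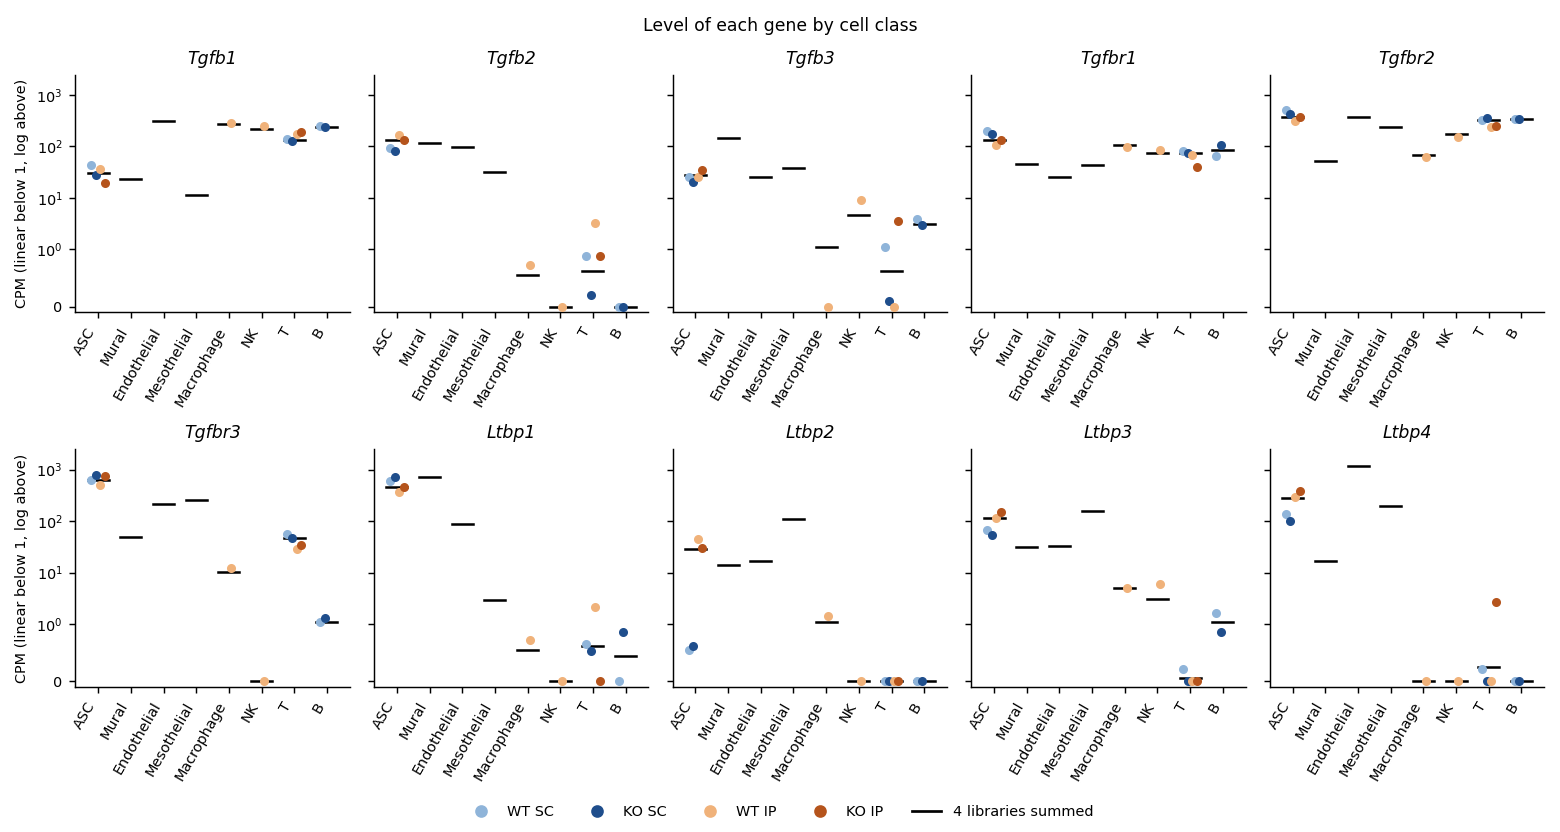
Level of each gene (CPM, linear below 1 and logarithmic above) by cell class; points are libraries with at least 30 cells of the class and black lines the 4 libraries summed. Tgfb1 is at 244 CPM in B cells and 30.7 in ASC, whereas Tgfb2 is at 136 CPM in ASC and had no UMI in B cells.

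Tgfb1 encodes the ligand most used by immune cells. Over the 4 libraries it was at 316 CPM in EC (95% Poisson interval 265 to 375), 276 in macrophages (252 to 301), 244 in B cells (230 to 259), 217 in natural killer (NK) cells (183 to 257) and 137 in T cells (131 to 143). In this order the pooled intervals of neighbours overlapped down to NK cells, and pooled T cells stood below them. The pooled order mixes libraries and need not hold within each. T cells were at 140 and 126 CPM in WT and KO SC, and at 173 and 189 in WT and KO IP. In KO IP, macrophages were at 248 CPM, and 9 NK cells held 5 UMIs. The EC value pooled 106 UMIs from 18 cells of WT IP, 15 from 5 cells of KO IP and 13 from 3 cells of WT SC. The 2 EC of KO SC had none, so the rank of EC rests mostly on WT IP. ASC were lower again at 30.7 CPM (27.9 to 33.8), which did not differ beyond counting error from 22.9 in mural cells (9.88 to 45.1). In SC, T cells held 46.7% of the Tgfb1 UMIs of WT and 61.4% of those of KO, close to their shares of cells (47.2% and 62.5%), and ASC held 5.72% and 2.31%. In WT IP macrophages held most, 29.7%, and T cells 12.1%, whereas in KO IP T cells held 36.9% and macrophages 14.4%. ASC, at 41.7% and 41.3% of the IP cells, held 16.5% and 15.3%. T cell markers in ASC summed to at most 9.95 CPM, against 4057 to 4843 CPM in T cells.

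Tgfb2, the ligand that depends most on betaglycan for receptor binding, was at 136 CPM in ASC (130 to 142), 114 in mural cells (81.8 to 156) and 96.8 in EC (69.5 to 131). The intervals of these 3 overlapped, but the EC value pooled unlike libraries. In WT IP, with 18 of the 28 EC, Tgfb2 was at 54.3 CPM (31.0 to 88.1), below the ASC of that library at 164, whereas in KO IP it was at 233 CPM with 15 of 19 UMIs in 1 cell. B and NK cells had no Tgfb2 UMI, which in B cells allows up to 0.666 CPM, and 1856 T cells held 10 UMIs. Tgfb3 was highest in mural cells at 149 CPM (111 to 195), against 27.9 in ASC (25.2 to 30.8), and was at 3.11 CPM or below in T cells, B cells and macrophages.

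Among receptors, Tgfbr2 was at 382 CPM in EC (326 to 446), 373 in ASC (363 to 383), 336 in B cells (319 to 353) and 330 in T cells (321 to 339). EC overlapped ASC, B cells and T cells, B cells overlapped T cells, and pooled ASC stood above both lymphocyte classes. Within WT IP the log2 ratio of ASC over B cells was 0.19 (-0.24 to 0.69). In each of the other libraries that interval was positive throughout. Macrophages were lower at 69.0 CPM (57.4 to 82.2). Tgfbr1, the kinase that phosphorylates SMAD2 and SMAD3, ranged from 26.0 CPM in EC to 136 in ASC. Tgfbr3 was at 628 CPM in ASC (615 to 641) and 47.2 in T cells (43.9 to 50.7), with 5 UMIs in 806 B cells and none in 75 NK cells, which allows up to 4.69 CPM.

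The levels of the binders in the rare stromal classes rested on few cells. Ltbp1 was at 470 CPM in ASC (459 to 482). In mural cells it was at 1115 CPM in KO IP, where 1 cell held 142 of the 204 UMIs, and at 251 to 348 CPM in the other 3 libraries. Ltbp4, a binder with a role in elastic fibre assembly, was at 848 CPM in EC of WT IP (746 to 960) against 289 in ASC of the same library, and 1 EC of WT SC held 182 of that library's 185 UMIs. Ltbp2, which does not bind latent TGF beta and acts in microfibrils, was at 28.9 CPM in ASC (26.1 to 31.8). Its 37 UMIs in mesothelial cells all came from 1 of the 2 WT IP cells, and the 11 mesothelial cells of KO IP had none. Ltbp3 was at 114 CPM in ASC (109 to 120) and, in the mesothelial cells of KO IP, at 141 (102 to 191).

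Within ASC the levels were as follows, in the order WT SC, KO SC, WT IP and KO IP. Tgfb1 was at 43.1, 27.6, 35.8 and 19.8 CPM, from 78, 45, 218 and 88 UMIs. Tgfb2 was at 92.9, 81.6, 164 and 134 CPM. Tgfb3 was at 25.4, 20.2, 25.6 and 34.7 CPM. KO was the lower genotype in both depots for Tgfb1 and Tgfb2, and IP the higher depot in both genotypes for Tgfb2.
Tgfbr1 was at 197, 171, 109 and 136 CPM. Tgfbr2 was at 507, 432, 311 and 381 CPM. Tgfbr3 was at 643, 774, 500.3 and 743 CPM. WT IP held the lowest level of each receptor.
Ltbp1 was at 592, 734, 363 and 471 CPM. Ltbp3 was at 68.6, 53.3, 116 and 152 CPM. Ltbp4 was at 135, 102, 289 and 392 CPM. Ltbp1 was thus higher in SC, and Ltbp3 and Ltbp4 higher in IP, in each genotype. Ltbp2 had 1 UMI in each SC library and 268 and 133 UMIs in WT IP and KO IP, that is 0.553, 0.613, 44.0 and 29.9 CPM.

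**Figure D2:**
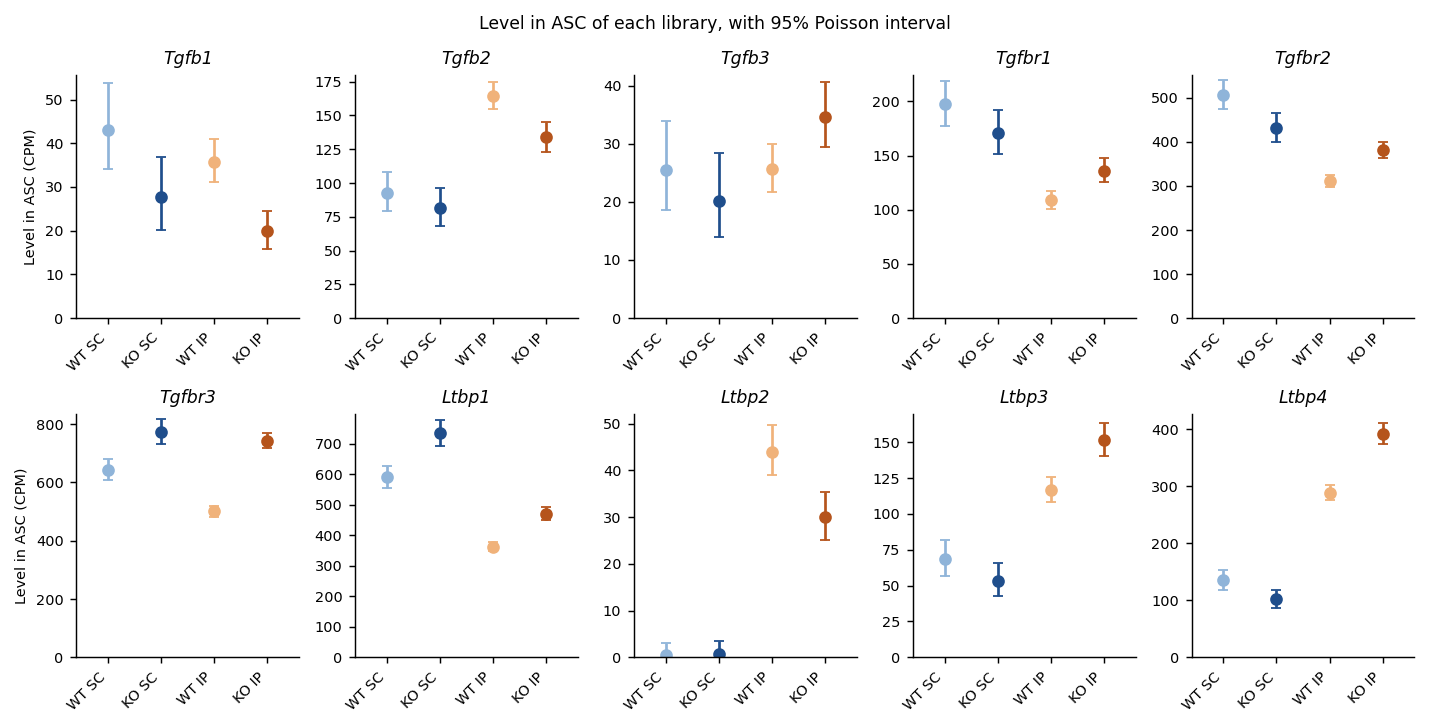
Level in ASC (CPM) of each gene in the 4 libraries, with 95% Poisson intervals that cover counting error only. Ltbp2 is at 44.0 and 29.9 CPM in IP and below 1 in SC, Ltbp4 is highest in KO IP at 392 CPM, and Tgfb1 is lower in KO than in WT in each depot.

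Thinned to 2000 UMIs per cell, which left out 14, 10, 26 and 24 shallower ASC in the same order, a UMI of Ltbp4 was found in 17 of 90, 17 of 113, 113 of 254 and 86 of 190 ASC. Without thinning the numbers were 52 of 104, 70 of 123, 230 of 280 and 175 of 214. T cells, which should lack the gene, had it unthinned in at most 2.40% of cells in any library, at median depths of 7659 to 9088 UMIs against 14240 to 23098 in ASC. The IP shares were above the SC shares with and without thinning. For Ltbp2 the thinned shares were 0%, 0%, 3.94% and 4.21%, where the SC zeros allow up to 4.02% and 3.21% by the exact binomial interval, and unthinned they were 0.962%, 0.813%, 18.2% and 8.88%, with no T cell holding a UMI. Ltbp2 was concentrated in few cells. In WT IP 7 of 280 ASC held 50% of its UMIs and in KO IP 3 of 214, against 50 and 41 for Ltbp4.

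The comparison of KO with WT asks what the KO genotype goes along with in a class of cells of the same depot. In SC ASC, 9 of the 10 genes had at least 50 UMIs and were compared, and Tgfb1 alone was past 1.5-fold, the size used for every call here. It was lower in KO by a log2 ratio of -0.64 (95% counting interval -1.21 to -0.10). None was 1.5-fold higher. Of all 7279 genes compared, 6.25% were 1.5-fold lower and 6.10% higher, so 1 of 9 is near the background. Within the fold, Ltbp1 (log2 ratio 0.31, interval 0.19 to 0.43) and Tgfbr3 (0.27, 0.15 to 0.38) were higher in KO, and Ltbp4 (-0.40, -0.70 to -0.12) and Tgfbr2 (-0.23, -0.37 to -0.09) lower. For Tgfb2, Tgfb3, Tgfbr1 and Ltbp3 the interval included 0. The median of the 9 was -0.23, against 0.005 over all genes.

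In IP ASC all 10 were compared, and Tgfb1 was again the only gene past 1.5-fold, with a log2 ratio of -0.85 (-1.23 to -0.49). Over 10482 genes, 4.80% were 1.5-fold lower and 7.47% higher. The other 9 stayed within the fold, Tgfbr3 and Ltbp2 narrowly. Tgfbr3 (0.57, 0.50 to 0.64), Ltbp4 (0.44, 0.34 to 0.54), Tgfb3 (0.44, 0.11 to 0.77), Ltbp3 (0.38, 0.23 to 0.54), Ltbp1 (0.38, 0.29 to 0.46), Tgfbr1 (0.32, 0.16 to 0.49) and Tgfbr2 (0.29, 0.20 to 0.39) were higher in KO. Ltbp2 (-0.55, -0.87 to -0.25) and Tgfb2 (-0.30, -0.45 to -0.15) were lower. With cells weighted equally Tgfb3 was at -0.06, Tgfb1 lost its call and others of the 10 passed the fold. The median of the 10 was 0.35, against 0.05 over all genes.

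**Figure D3:**
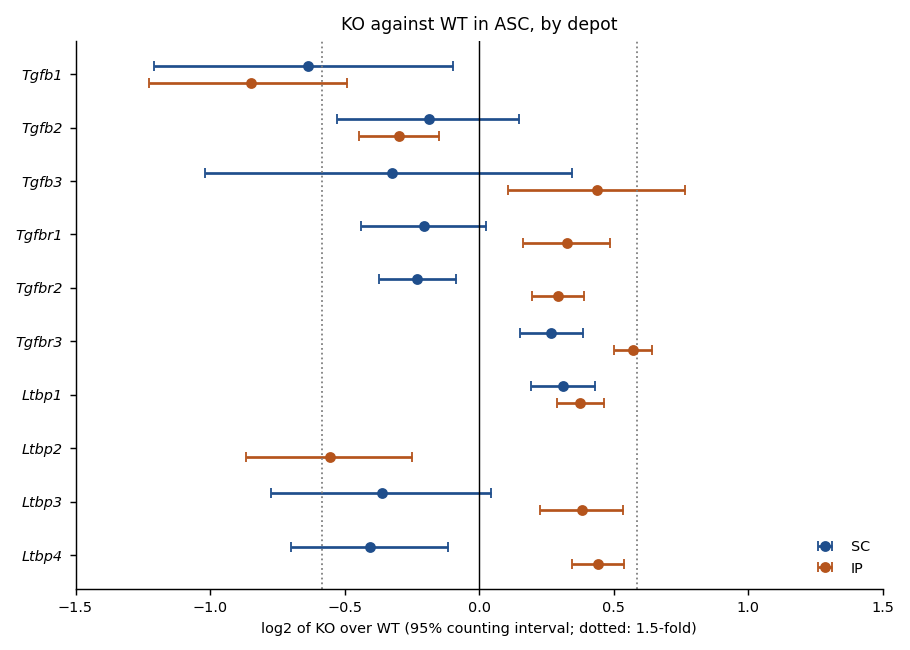
Log2 of KO over WT in ASC for each gene, by depot, with 95% counting intervals and dotted lines at 1.5-fold. Tgfb1 lies past the lower line in both depots (-0.64 and -0.85), and Ltbp4 and Tgfbr2 lie on opposite sides of 0.

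Tgfb1, Tgfbr3 and Ltbp1 thus had the same direction in both depots with intervals on 1 side of 0. For Tgfb1 the SC value rests on 45 and 78 UMIs. It was -0.31 with each cell weighted equally and -0.58 without the cell with most Tgfb1 UMIs in each library, which ends the call. In IP it ranged from -0.98 to -0.53 over the alternatives, and the smallest value, with cells weighted equally, also ends the call. Restricted to ASC with at least 2 progenitor genes detected (76.0% and 82.1% of ASC in WT and KO SC, 63.2% and 73.4% in WT and KO IP), Tgfb1 was at -0.72 (-1.35 to -0.13) in SC and -1.05 (-1.46 to -0.65) in IP. In the remaining IP ASC it was at 0.20 (-0.83 to 1.08), from 38 WT and 14 KO UMIs. Those cells were shallower, with median depths of 12061 UMIs in WT and 3599 in KO, against 26440 and 25000. Macrophage markers in ASC, whose cells hold Tgfb1 at a higher level, summed to 4.98 and 7.36 CPM in WT and KO SC and to 22.0 and 10.6 CPM in WT and KO IP. Their part in the result was not tested.

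Tgfb2 in IP depended on single cells. A single WT cell held 142 of the 1001 UMIs, and without the top cell of each library the log2 ratio was -0.16. The 103 WT and 57 KO ASC of IP with fewer than 2 progenitor genes had 203 and 74.9 CPM of Tgfb2 (log2 ratio -1.42, -1.99 to -0.93). In the ASC with at least 2 the ratio was -0.12 (-0.28 to 0.04). The split also divided cells by depth. Median UMIs were 12061 in WT and 3599 in KO with fewer than 2 genes, and 26440 and 25000 with at least 2. Which of these groups held the WT cell with 142 UMIs is not given here.

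Ltbp4 and Tgfbr2 were lower in KO SC and higher in KO IP. In the cluster that held most SC ASC (45 WT and 69 KO cells), Ltbp4 was at a log2 ratio of 0.30 (-0.18 to 0.79), so its direction in SC turned with the cells chosen, while Tgfbr2 was at -0.40 (-0.56 to -0.24). In the largest IP cluster (222 WT and 151 KO cells) they were at 0.46 (0.36 to 0.56) and 0.30 (0.20 to 0.40). With the shared barcodes kept and cells weighted equally, Ltbp4 in SC was at 0.41.

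The comparison of IP with SC shares its libraries with the comparisons above. In WT ASC 7 of 10 genes were past 1.5-fold, 4 of them higher in IP and 3 lower, where 16.0% of 9755 genes were higher and 12.8% lower. Ltbp2 (log2 ratio 5.73, interval 3.83 to 11.6), Ltbp4 (1.10, 0.91 to 1.30), Tgfb2 (0.82, 0.59 to 1.07) and Ltbp3 (0.76, 0.49 to 1.05) were higher. Tgfbr1 (-0.86, -1.05 to -0.67), Ltbp1 (-0.71, -0.81 to -0.60) and Tgfbr2 (-0.70, -0.82 to -0.59) were lower. In KO ASC 6 of 10 were past the fold, 5 higher in IP and 1 lower, where 17.8% of 9261 genes were higher and 11.7% lower. Ltbp2 (5.03, 3.11 to 10.9), Ltbp4 (1.94, 1.72 to 2.18), Ltbp3 (interval 1.18 to 1.85), Tgfb3 (0.76, 0.23 to 1.37) and Tgfb2 (0.71) were higher, and Ltbp1 (-0.64, -0.74 to -0.54) was lower.

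**Figure D4:**
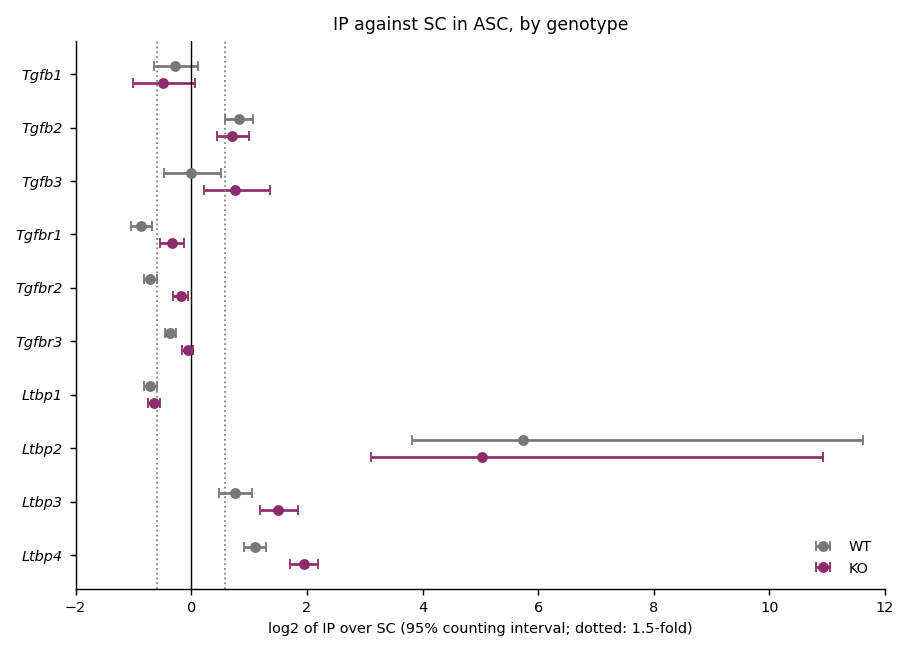
Log2 of IP over SC in ASC for each gene, by genotype, with 95% counting intervals and dotted lines at 1.5-fold. Ltbp2 has wide intervals because each SC library held 1 UMI, and Ltbp3 and Ltbp4 are higher and Ltbp1 lower in IP in both genotypes.

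Ltbp2, Ltbp3, Ltbp4 and Tgfb2 were higher in IP, and Ltbp1 lower, in WT and in KO. With the shared barcodes kept in KO SC, Ltbp2 in KO was at 3.20, and with cells also weighted equally its direction turned, to -0.87. The intervals of Ltbp4 (WT 0.91 to 1.30, KO 1.72 to 2.18) and of Ltbp3 did not overlap between the genotypes, a difference that was not tested. With each cell weighted equally, no gene remained 1.5-fold lower in IP in WT (Ltbp1 -0.44, Tgfbr2 -0.50, Tgfbr1 -0.38), while 4 stayed higher. Beside these values, mesothelial markers in ASC summed to 20.5 and 14.7 CPM in WT and KO SC and to 145 and 257 CPM in WT and KO IP. Of the 8 mesothelial markers, 2 to 5 had a UMI in a library. In WT IP the 26 ASC with at least 3 Ltbp2 UMIs held 122 CPM of mesothelial markers (101 to 147) against 149 (139 to 160) in the other 254, and 64.4 CPM of mural markers (49.0 to 83.1) against 70.6 (63.5 to 78.2). In KO IP the corresponding 12 ASC held 400.4 CPM (344 to 464) against 241 (226 to 257), and 173 CPM of mural markers (137 to 216) against 36.0 (30.4 to 42.4). The part of other cell types in the depot difference was not tested.

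In lymphocytes and macrophages only the genes with enough UMIs were compared. In SC T cells, none of 4 (Tgfb1, Tgfbr1, Tgfbr2, Tgfbr3) was past 1.5-fold, where 2.91% of 9547 genes were higher in KO and 10.8% lower. In IP T cells Tgfbr1 was lower in KO, at 39.2 against 68.5 CPM (44 and 63 UMIs, log2 ratio -0.80, -1.40 to -0.23), where 15.0% of 5241 genes were higher and 4.45% lower. In SC B cells Tgfbr1 was higher in KO, at 108 against 64.6 CPM (253 and 118 UMIs, 0.74, 0.42 to 1.07), where 2.95% of 6752 genes were higher and 6.74% lower. The direction of Tgfbr1 thus differed between these classes, a difference that was not tested. In the T cell cluster with enough UMIs in IP (46 WT and 38 KO cells) it was at -0.76 (-1.64 to 0.04). In B cells it was higher in KO in each of the B cell clusters, by 0.37 (-0.09 to 0.85) in a cluster of 121 WT and 288 KO cells and by 0.98 (0.52 to 1.45) in a cluster of 177 WT and 173 KO cells, and over all alternatives it ranged from 0.62 to 0.81. In IP macrophages (81 WT and 28 KO cells) Tgfbr2 was higher in KO, at 98.7 against 61.9 CPM (33 and 85 UMIs, 0.69, 0.05 to 1.27), where 15.7% of 4595 genes were higher and 12.7% lower. It was at 0.34 with classes taken from clusters, at 0.30 with cells weighted equally and at 0.52 without the top cell of each library, each of which ends the call. Over each of these classes Tgfb1 stayed within the fold, with ratios from -0.19 in macrophages to 0.12 in IP T cells. Within the clusters that held SC T cells the values spread more widely. Tgfb1 ran from -0.94 (-1.45 to -0.43, 41 WT and 83 KO cells) to 0.33 (-0.18 to 0.88, 21 WT and 52 KO cells), with a second cluster past the fold at -0.60 (-1.02 to -0.18). Tgfb1 was positive only in the cluster at 0.33, whose interval included 0 and which as a cluster was left unassigned. Tgfbr1 ran from -1.11 (-1.68 to -0.54) to 0.48 (0.02 to 0.99), so it did not have 1 direction across SC T cells.

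A list of 42 other genes of the pathway was followed in ASC. In SC 37 were compared, of which 4 were 1.5-fold higher and 10 lower in KO, with a median of -0.29. In IP 41 were compared, of which 2 were higher and 8 lower, with a median of -0.04. The same fold took the shares of all genes given above. The lower genes were mostly targets, with 6 of 10 lower in SC and 5 of 12 in IP, and the feedback inhibitors were mostly within the fold, with 1 of 8 higher in each depot and none lower.

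Thbs1, Eng, Tagln and Timp1 were lower in KO in both depots. Thbs1, the thrombospondin that releases TGF beta from its latency peptide, was at 121, 57.6, 563 and 217 CPM in the library order used above (log2 KO over WT -1.06 in SC and -1.37 in IP). Eng, the co-receptor endoglin, was at 33.2, 11.7, 62.6 and 36.9 CPM (-1.48 and -0.76). Tagln, the smooth muscle protein transgelin, was at 27.1, 1.23, 141 and 16.2 CPM (-4.16 and -3.11), with 2 UMIs in KO SC. For all of these the WT library was above the KO library of its depot. Timp1, a metalloproteinase inhibitor, was at 147, 24.5, 1166 and 360 CPM (-2.57 and -1.69).
Postn, the matrix protein periostin, was lower in SC (-2.02), and Acta2, smooth muscle actin, was lower in IP (-2.61). In SC, Acta2 had 34 UMIs in WT and 2 in KO, below the minimum of 50, and was not compared. Mural markers summed in ASC to 31.0 and 34.3 CPM in WT and KO SC and to 69.7 and 49.8 CPM in WT and KO IP, and their part in the values of Tagln and Acta2 was not tested. The decoy receptor Bambi (1.07), the co-receptor Cd109 (1.01) and the SMAD repressor Tgif1 (0.68) were higher in KO in SC, and in IP the inhibitory Smad6 (0.70) and the matrix protein gene Tgfbi (1.41) were higher.

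**Figure D5:**
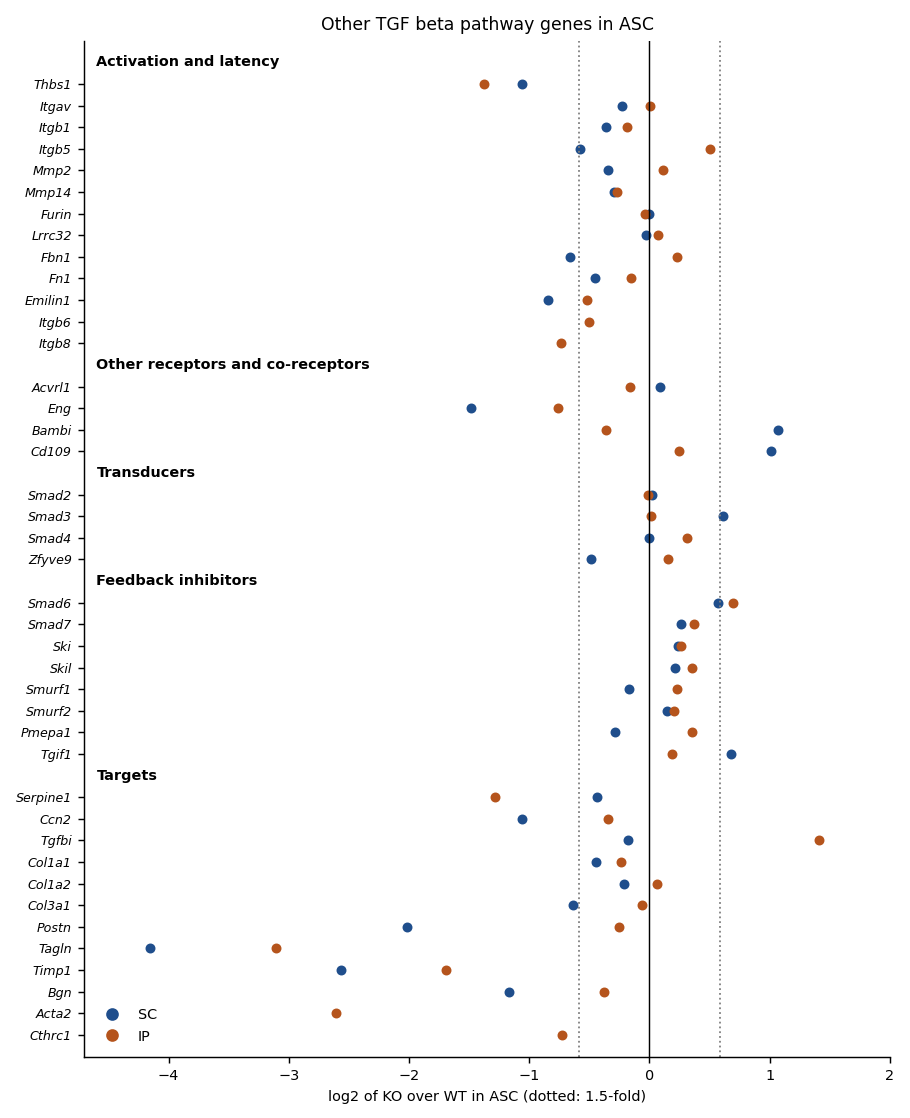
Log2 of KO over WT in ASC of the other pathway genes with at least 50 UMIs, by depot, grouped by role, with dotted lines at 1.5-fold. Tagln (-4.16 and -3.11) lies farthest below 0 among the targets in each depot, followed by Timp1 in SC (-2.57) and Acta2 in IP (-2.61), and Tgfbi in IP (1.41) lies farthest above.

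Between depots, 15 of 41 list genes were 1.5-fold higher in IP in WT and 8 lower, and in KO 14 of 39 were higher and 7 lower. Over all genes 16.0% were higher and 12.8% lower in WT, and 17.8% and 11.7% in KO. Of the targets 7 of 12 were higher in WT and 8 of 11 in KO, and 1 was lower in each genotype, Tgfbi (log2 ratio -2.80 in WT and -1.21 in KO). Of the feedback inhibitors 6 of 8 were lower in WT and 4 of 8 in KO, and none was higher.

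Over 12 units of class and library with at least 30 cells, the gene whose level followed a member most closely was named for 9 members by Pearson's r, as a description over units that share libraries and depth. These were Fam49b for Tgfb1 (r = 0.989), Gstm2 for Tgfb2 (0.998), Kalrn for Tgfb3 (0.978), Cars for Tgfbr1 (0.901), Dcaf6 for Tgfbr2 (0.947), Daam1 for Tgfbr3 (0.982), Srgap1 for Ltbp1 (0.999), Lrg1 for Ltbp2 (0.996) and Kcnt2 for Ltbp4 (0.999). The lowest r of these was that of Tgfbr1, which was present in all of these classes.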

How the data were processed

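The deposited values are unnormalised UMI counts for each gene in each barcode, which the authors made from 10x Genomics Chromium 3' v3 libraries. The matrix header names Cell Ranger 7.0.0. The submitters' processing notes name mm10 and STAR 2.6, while intron use and cell calling are not given in the sources used here. If introns were counted, members with long introns gain UMIs. A barcode needed 200 detected genes and no more than 25% of UMIs from mitochondrial genes. Scrublet (scanpy 1.11.5, expected rate 5%) marked 0.556% as doublets, which were removed, as were the 93 barcodes of KO SC shared with WT IP. Each cell was given the class of which the largest share of markers was detected, provided 2 markers or more and at least 2 times the share of every other of 14 classes, and was otherwise unassigned. Clusters (Leiden, resolution 1, 2000 variable genes, 30 components, 15 neighbours) served as an alternative. Log2 ratios were taken between summed CPM with 0.5 UMI added, for genes reaching 50 UMIs when both libraries were added, with exact conditional binomial intervals at 95%. CPM intervals are exact Poisson and shares exact Clopper-Pearson; a count of 0 was given a floor of 3 counts. The code for ratios and intervals was run on simulated counts that held counting error only. That run cannot show how the intervals behave where a few cells hold many of the UMIs.

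The 10 members, the pathway and marker lists and the rule for named genes were chosen with earlier results of these data known. Named were the members, list genes past 1.5-fold the same way in ASC of both depots, the 3 largest each way in each depot, and the gene most alike to each member by log2(CPM + 10) among genes with at least 300 UMIs. Some items that this rule or the annotation gave are not reported here. Gene identifiers were matched to GENCODE M21 on GRCm38 (32158 of 32290), and promoters came from RefSeq on GRCm38.p6, which held 8 of the 10. Computation used scipy 1.17.1 and pandas 2.3.3 under Python 3.11.15. Alternatives covered scaling, UMI and gene minimums, the added UMIs, the mitochondrial limit, doublets, marker number, clusters, cell weighting, shared barcodes and single top cells.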

Additional observations from a re-analysis of the deposited data

Results flagged for a closer look

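Tgfbr2 and Ltbp4 differed between the depots in the direction of KO against WT in ASC. The log2 ratio of Tgfbr2 was -0.23 in SC and 0.29 in IP, and that of Ltbp4 was -0.40 in SC and 0.44 in IP. Each value comes from 1 library per genotype, and the difference between depots was not tested.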

How the results depend on the processing

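No paired analysis was possible because each group had 1 library and the labels give no replicate numbers, and for the same reason no replicate could be left out. Counts of members past 1.5-fold stayed within 1.5 times the reported value 85 times and moved further 11 times. In SC ASC (1 gene, KO against WT) none remained with cells weighted equally or without the top cell of each gene, 0 in both. In IP ASC (1 gene) it was 2 with median-of-ratios scaling, with classes from clusters, with cells weighted equally and without the top cell. For WT ASC, IP against SC (7 genes), it was 4 with cells weighted equally. In IP T cells (1 gene) it was 2 with classes from clusters, and in IP macrophages (1 gene) it was 0 with classes from clusters, with cells weighted equally and without the top cell. Of the single ratios 602 moved by less than their counting interval, 30 moved further, and 1 of those past 1.5-fold changed sign. That was Ltbp2 in KO ASC, IP against SC, at -0.87 with the shared barcodes kept and cells weighted equally, against 5.03, and it was 3.20 with the barcodes kept and UMIs summed. Among smaller ratios whose interval left out 0, a sign change occurred with cells weighted equally for Tgfb3 in IP ASC (-0.06) and Tgfbr2 in SC T cells (-0.02), and with the shared barcodes also kept for Ltbp4 in SC ASC (0.41) and Tgfbr2 in KO ASC, IP against SC (0.06). The cause of these shifts was not tested. Keeping the shared barcodes and leaving out the top cell of each gene were alternatives chosen after seeing the data. Depth limited the rare classes (EC, mural and mesothelial cells), where single cells set several values.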
